A study of Cucurbita pepo with 18 samples.

Results

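The seed coats of a hull-less and a hulled *Cucurbita pepo* accession were compared at 5 days after pollination (5 DAP), with 3 libraries of each, which are 6 of the 18 libraries of the series. The members were taken by their labels alone. The hulled accession (H) makes a thick lignified hull, and the hull-less accession (HL) carries the recessive allele of *CpNST1*, a NAC transcription factor gene in which an insertion creates an early stop codon. The seed coat was taken from each accession on the same day after pollination, and the study describes the libraries of a group as biological replicates. Each type is represented by 1 accession, so effects of the *CpNST1* allele cannot be told apart from those of the rest of the genetic background. Reads from both accessions were mapped to 1 zucchini reference genome, and for a gene whose sequence differs between the accessions, fewer reads mapped cannot be told apart from less transcript. In these bulk samples, fewer cells of a type and less RNA per cell cannot be told apart either.

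The seed coat of pumpkin develops from the integuments of the ovule. After fertilization its cells divide and then enlarge by taking up water into the vacuole while the primary wall yields, and only later do several layers lay down cellulose- and lignin-rich secondary cell walls (SCWs). Enlargement depends on wall-loosening proteins such as expansins, on pectin-modifying enzymes and on aquaporins, which carry water across the plasma membrane (PIPs) and the vacuolar membrane (TIPs). Auxin, gibberellin, cytokinin and ethylene set the pace of division and enlargement, and transcription factors of the MADS, homeodomain, bHLH, MYB, NAC and AP2 families give the layers their identity. An inner layer of the young seed coat is a green chlorenchyma. The comparison at 5 DAP asks which of these functions already differed between the accessions before the walls thickened.

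The 6 libraries held 16454156 to 17987431 counted reads and detected 25235 to 25355 of 29484 features. Expression is given below in CPM, the reads of a gene per 1000000 counted reads after scaling of the libraries by trimmed mean of M-values (TMM), always in the order of replicates 1 to 3, and 3 counts in a library correspond to 0.162 to 0.186 CPM. Correlations of log2 expression were 0.955 to 0.986 within an accession and 0.863 to 0.913 between the accessions, and the main component of the 6 libraries, with 72.1% of the variance, separated the accessions. Hulled replicate 2 and hull-less replicate 3 stood apart from the other libraries of their groups on the next component (15.4%). In these 2 libraries 381 genes were lower by more than 1 log2 unit than in the other libraries of their group, and 4 genes were higher. Of the 381 genes, 19 were among the genes called higher in hull-less seed coats (edgeR), a share close to the 5.53% of all tested genes called higher. Among those called lower were 0, against 6.43% of all tested genes. The results below are also given without these libraries where that matters. *CpNST1* itself (Cp4.1LG12g04350, LG12, bases 3411999 to 3413380, plus strand) was hardly expressed at 5 DAP. It had 6, 58 and 11 counts in the hulled and 3, 10 and 33 counts in the hull-less libraries (0.351, 3.21 and 0.632 CPM in hulled and 0.186, 0.586 and 1.79 CPM in hull-less seed coats), and the groups overlapped. Its log2 fold change was -0.69 ± 0.97 (SE), with an adjusted p of 0.637, and over the alternatives it ran from -1.83 to 0.84 with adjusted p from 0.287 to 0.895.

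Of 22597 tested genes, 1249 had higher and 1453 had lower expression in hull-less than in hulled seed coats, so that 12% of the tested genes were differentially expressed genes (DEGs), 5.53% higher and 6.43% lower. The limits for a DEG were an adjusted p of 0.05 and a log2 fold change of 1 in either direction (edgeR), and log2 fold changes are for hull-less against hulled throughout. The median log2 fold change of all tested genes was -0.01, and the median absolute log2 fold change of the DEGs was 1.67. Without hulled replicate 2 and hull-less replicate 3 together, 1395 genes were higher and 1403 lower, and 2302 of the 2702 DEGs were called again.

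Among described DEGs averaging 100 counts or more, those with the widest differences were expressed in 1 accession and at or near 0 in the other. A non-specific lipid-transfer protein 10 gene (Cp4.1LG19g01490, LG19, bases 1231687 to 1232061), of a family of small secreted proteins that carry lipids to the cuticle and wall, had 0 counts in every hulled library. Its levels in the hull-less libraries were 94.98, 91.9 and 82.9 CPM, at least 512-fold higher than the level that 3 counts in a hulled library would give. A homolog of GLABRA 2 (Cp4.1LG03g14080, LG03, bases 9115844 to 9121612), a homeodomain factor that in *Arabidopsis* shapes epidermal cells and seed coat mucilage, also had 0 counts in the hulled libraries. It reached 19.2, 17.1 and 19.2 CPM in hull-less seed coats, at least 106-fold higher. A pirin-like gene (Cp4.1LG06g08620) had 1 count in the hulled libraries together and 26.4, 19.3 and 18.02 CPM in the hull-less libraries. A lipase gene (Cp4.1LG10g02580) rose from 0.351, 0.553 and 0.172 to 97.6, 104 and 108 CPM, with a log2 fold change of 8.13 ± 0.24 (SE) and an adjusted p of 1.27e-05. The remaining genes of this group were a Tubby-like F-box protein 7 gene (Cp4.1LG00g08320, log2 fold change 7.35, adjusted p = 1.27e-05) and an isoflavone 2'-hydroxylase gene (Cp4.1LG16g01390, 7.29, adjusted p = 0.000453).

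The 6 genes with the lowest log2 fold changes all had 0 counts in every hull-less library. A gene with a DUF538 domain, of unknown function (Cp4.1LG18g00130), was at 48.1, 59.8 and 46.003 CPM in hulled seed coats, at least 276-fold higher than in hull-less ones. Genes named for a beta-1,3-galactosyltransferase 2 (Cp4.1LG09g09160) and an arabinosyltransferase ARAD1 (Cp4.1LG09g06760), enzymes that build wall polysaccharides and glycoproteins, were at 23.04, 18.6 and 24.2 CPM and at 20.4, 6.86 and 15.8 CPM in the hulled libraries. They were at least 118-fold and at least 77.1-fold higher there. A protein kinase NAK gene (Cp4.1LG19g03500), a BUD13 homolog (Cp4.1LG16g01550) and a zinc knuckle locus outside the annotation (LG03, bases 8032801 to 8036976) were at least 99.5-, 74.02- and 90.3-fold higher in hulled seed coats. Over all DEGs, 108 of those higher in hull-less seed coats had at most 3 counts in each hulled library (43 had 0 in all 3), and 170 of those lower had at most 3 counts in each hull-less library (64 had 0 in all 3). In 64 of the 108 and in 102 of the 170, the level also stayed at or under 3 counts in every library of that accession at 10 and 20 DAP.

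Among the DEGs with the most counts, 4 were higher in hull-less seed coats. A gene described as UDP-glycosyltransferase 73C6 (Cp4.1LG08g10720), an enzyme that adds sugars to hormones and phenolic compounds, rose from 3491, 2235 and 3205 to 7653, 11412 and 11983 CPM (log2 fold change 1.80 ± 0.23, adjusted p = 0.00207). The same gene model also holds a thaumatin domain, so its reads may come from more than 1 gene. Genes for 2 vacuolar proteases also rose: cysteine protease RD19A (Cp4.1LG16g02620, from 845 ± 199.9 to 1979 ± 138 CPM, SD, n = 3) and aspartic proteinase (Cp4.1LG10g09860, from 394 ± 109.5 to 873 ± 193 CPM). The fourth, NAC domain-containing protein 100 (Cp4.1LG03g08150), was at 365, 112 and 299.7 CPM in hulled and 862, 643 and 725 CPM in hull-less seed coats. Hulled replicate 2 lay far below the other hulled libraries, and the call was lost without hulled replicate 3 and without any 1 of the hull-less libraries. The 4 lower genes with the most counts were 3 plasma membrane aquaporins, described below, and the vacuolar cation/proton exchanger 3 gene (Cp4.1LG10g07910), which moves calcium and other cations into the vacuole. The exchanger was at 1020.0, 1199 and 1125 CPM in hulled and 632, 514 and 520.2 CPM in hull-less seed coats, a log2 fold change of -1.01 ± 0.12 that lies at the threshold and was called in 5 of 14 alternatives. The plot of 16 named genes shows such abundant genes beside genes that were off in one accession.

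**Figure D1:**
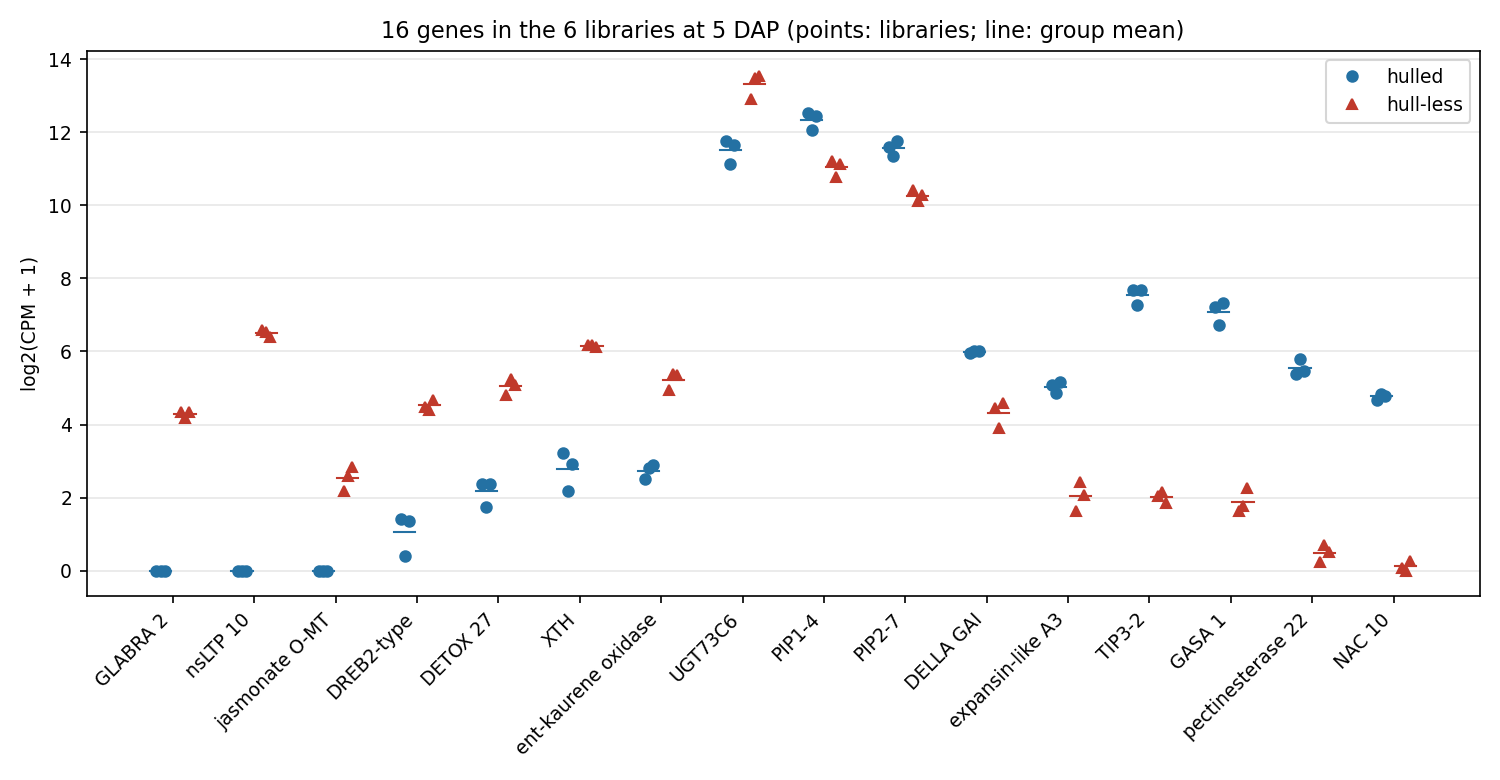
Expression of 16 named genes in the 6 libraries at 5 DAP as log2(CPM + 1), with circles for the 3 hulled and triangles for the 3 hull-less libraries and a line at each group mean. The GLABRA 2 homolog and the lipid-transfer protein gene sit at 0 in the hulled libraries. The points of the 2 accessions are apart in all 16 genes, as they are in 2699 of all 2702 DEGs.

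Genes of DNA replication and protein synthesis had lower called shares than all tested genes, while those of the cell cycle were near that share. Of 50 tested genes of DNA replication, 0 were called by edgeR in either direction. The count was 0 by DESeq2 as well, 7 had an unadjusted p under 0.05 (5 higher and 2 lower), and the log2 fold changes ran from -0.91 to 0.99. Leaving out hulled replicate 2 or hull-less replicate 3 gave 1 higher gene, and leaving out hulled replicate 1 gave 1 lower gene. Among 310 genes of the cytosolic ribosome, 5 rose and 2 fell, and among 98 ribosomal genes of the plastid type, 3 rose and 1 fell. Both shares, 2.26% and 4.08%, were under the 12% of all tested genes. Core and linker histone genes were called at 9.30% (2 of 86 higher and 6 lower). A histone H4 gene (Cp4.1LG05g09220) was at 53.98, 57.3 and 65.2 CPM in hulled and 27.98, 27.03 and 27.8 CPM in hull-less seed coats, and a probable histone H2AXb gene (Cp4.1LG18g00560) at 13.9, 16.9 and 24.1 CPM in hulled and 2.48, 2.05 and 2.65 CPM in hull-less seed coats. A histone H2A gene (Cp4.1LG17g06790) was higher, at 1.46, 2.05 and 1.55 CPM in hulled and 4.53, 4.87 and 7.79 CPM in hull-less seed coats. A histone H2AX gene (Cp4.1LG12g05210) had 2, 1 and 0 counts in hulled and 29, 50 and 64 counts in hull-less seed coats, a ratio of 48.5 (95% counting interval 16.3 to 238). Genes with cyclin and cyclin-dependent kinase names were called at 14.1%, 6 higher and 8 lower of 99. D-type cyclins, which start the cycle, went both ways, and Cyclin-D2-1 (Cp4.1LG07g02590), chosen after its values were seen, was at 7.54, 9.56 and 7.47 CPM in hulled and 3.10, 4.16 and 4.06 CPM in hull-less seed coats (log2 fold change -1.12 ± 0.19, adjusted p = 0.00576), a call lost without hulled replicate 2 and without hull-less replicate 1. Cyclin-D3-3 (Cp4.1LG02g06870) was at 14.3, 17.4 and 17.9 CPM in hulled and 27.7, 36.2 and 38.3 CPM in hull-less seed coats (log2 fold change 1.04 ± 0.15, adjusted p = 0.00316). Cyclin-U4-1 (Cp4.1LG01g03450) was lower, at 51.8, 43.1 and 42.2 CPM in hulled and 8.25, 14.5 and 6.33 CPM in hull-less seed coats, and so was cyclin-dependent kinase inhibitor 7 (Cp4.1LG15g04970), a brake on the cycle, at 15.03, 20.5 and 15.9 CPM in hulled and 4.59, 3.05 and 3.63 CPM in hull-less seed coats. Cyclin-H1-1 (Cp4.1LG10g02790), a partner of the kinase that activates other cyclin-dependent kinases, had a log2 fold change of 2.90 ± 0.13 at 5 DAP and of 3.28 and 3.61 at 10 and 20 DAP. Lower genes with cyclin and kinase names numbered 4 among genes of 10 or more counts in each library, 5 in a fit of all 18 libraries, 5 without hulled replicate 2, 4 without hull-less replicate 1 and 5 without hull-less replicate 2, and higher ones 3 in a fit of all 18 libraries. The lower histone genes were 3 without hulled replicate 3, and the higher ones 1 among genes of 10 or more counts in each library and 1 in a fit of all 18 libraries. Cytosolic ribosomal genes higher in hull-less seed coats numbered 2 in a fit of all 18 libraries, 3 without hulled replicate 1 and 3 without hulled replicate 3, and those lower 4 in a fit of all 18 libraries and 4 without hull-less replicate 1.

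**Figure D2:**
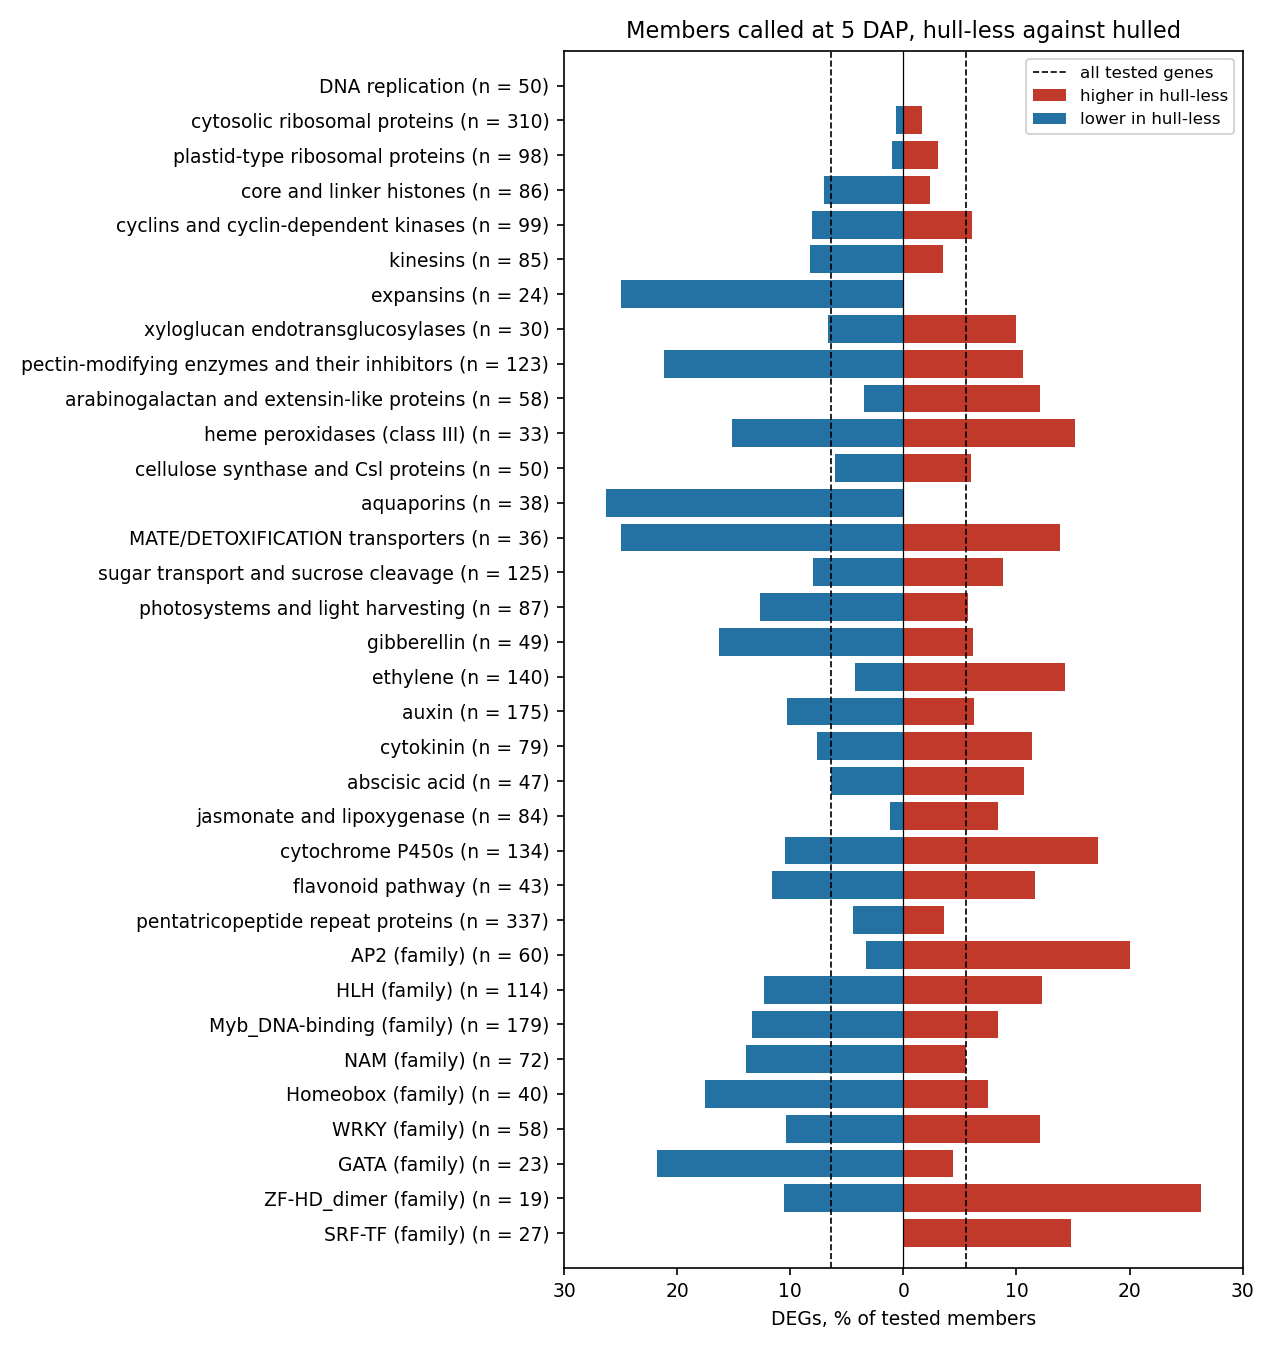
Share of the tested members of 25 word lists and 9 Pfam families that were DEGs at 5 DAP, in percent of tested members, with genes higher in hull-less seed coats to the right and lower ones to the left. Dashed lines mark the shares over all tested genes, 5.53% and 6.43%; expansins and aquaporins have bars only on the lower side, while AP2 and ZF-HD families reach far to the higher side.

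Of the groups of wall proteins, expansins, xyloglucan endotransglucosylase/hydrolases, pectin-modifying enzymes, arabinogalactan and extensin-like proteins and peroxidases had called shares above the 12% of all tested genes, from 15.5% to 31.7%. Cellulose synthase and related Csl proteins, which make the cellulose and other glucans of the wall, were at 12%, with 3 higher and 3 lower of 50. All 6 expansin genes called of 24 tested were lower in hull-less seed coats (25.0% called), and 0 were higher. By DESeq2 6 were lower and 0 higher, and at an unadjusted p under 0.05, 13 were lower and 1 higher. Over the 24 genes the log2 fold changes had a median of -0.56, against -0.01 for all tested genes. Expansin-like A3 (Cp4.1LG04g04730) was at 32.8, 28.1 and 34.7 CPM in hulled and 2.11, 4.40 and 3.25 CPM in hull-less seed coats, with a log2 fold change of -3.29 ± 0.24 (SE) and an adjusted p of 0.000264. Expansin-A6 (Cp4.1LG01g04870) was at 69.1, 31.6 and 54.6 CPM in hulled and 12.04, 8.09 and 6.06 CPM in hull-less seed coats (log2 fold change -2.57 ± 0.35, adjusted p = 0.00257). In both genes every hulled library was above every hull-less one, which the rule for naming them required. The accessions did not overlap in 2699 of all 2702 DEGs. The remaining 4 were Expansin-A4, Expansin-A11, Expansin-B3 and a further Expansin-like A3, with log2 fold changes between -1.04 and -1.18. Lower expansin genes numbered 2 in a fit of all 18 libraries, 3 without hulled replicate 2 and 2 without hull-less replicate 2, and 1 was higher without hulled replicate 1.

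Xyloglucan endotransglucosylase/hydrolases, which cut and rejoin the xyloglucan chains that tether cellulose, went in both directions, 3 higher and 2 lower of 30 (16.7% called). Of these 30 genes 22 had a positive log2 fold change and the median was 0.62. The gene Cp4.1LG18g06260 rose from 8.42, 3.54 and 6.55 to 71.2, 71.1 and 68.6 CPM (log2 fold change 3.51 ± 0.28, adjusted p = 0.000347). The gene Cp4.1LG04g13070 rose from 16.96, 5.53 and 10.97 to 93.6, 65.1 and 65.4 CPM, and Cp4.1LG05g00440 had a log2 fold change of 1.18 ± 0.31 (adjusted p = 0.0293). The gene Cp4.1LG05g14520 fell from 32.9, 28.6 and 29.6 to 7.44, 7.27 and 7.68 CPM, and Cp4.1LG05g02860 had a log2 fold change of -2.34 ± 0.41. Without hulled replicate 2 and hull-less replicate 3, 6 genes of this family were higher, and lower ones numbered 1 among genes of 10 or more counts in each library and 1 in a fit of all 18 libraries.

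Pectin-modifying enzymes and their inhibitors were called at 31.7%, with 13 higher and 26 lower of 123. A putative pectinesterase 22 (Cp4.1LG18g00420, LG18, bases 906060 to 914138), which removes methyl groups from pectin, was at 40.5, 54.6 and 43.2 CPM in hulled and 0.186, 0.645 and 0.433 CPM in hull-less seed coats. Its log2 fold change was -6.74 ± 0.30 (SE) with an adjusted p of 3.77e-05. Pectinesterase QRT1 (Cp4.1LG06g08470) fell from 11.3, 11.997 and 10.4 to 3.04, 3.05 and 3.08 CPM and was also lower at 10 and 20 DAP, with log2 fold changes of -2.21 and -2.39. A 21 kDa protein of the pectinesterase inhibitor type (Cp4.1LG13g02110) rose from 25.7, 23.8 and 25.1 to 49.6, 55.6 and 63.3 CPM. An inhibitor of fructosidase 2 (Cp4.1LG19g12140), which shares the inhibitor domain but blocks invertases, rose from 0.409, 0.553 and 0.172 to 3.23, 2.58 and 3.14 CPM. Higher genes numbered 3 in a fit of all 18 libraries and 8 without hulled replicate 3, and lower genes 8 in a fit of all 18 libraries, 17 without hulled replicate 2 and 17 without hulled replicate 2 and hull-less replicate 3.

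Arabinogalactan and extensin-like proteins, glycoproteins of the wall and cell surface, were called at 15.5%, 7 higher and 2 lower of 58. Non-classical arabinogalactan protein 31 (Cp4.1LG10g04900) was at 81.9, 85.4 and 84.7 CPM in hulled and 183, 228 and 206 CPM in hull-less seed coats (log2 fold change 1.29 ± 0.10, adjusted p = 0.000294). Fasciclin-like arabinogalactan protein 4 was represented by 2 loci that moved oppositely: Cp4.1LG20g08490 had 1, 3 and 0 counts in hulled and 24, 32 and 32 counts in hull-less seed coats, while Cp4.1LG00g08520, on unplaced sequence, fell from 3.04, 3.10 and 3.68 to 0.434, 0.704 and 0.433 CPM. Fasciclin-like arabinogalactan protein 11 (Cp4.1LG10g04690), which is tied to secondary walls in *Arabidopsis*, was also lower, at 1.29, 3.59 and 1.61 CPM in hulled and 0.682, 0.704 and 0.541 CPM in hull-less seed coats. Higher genes of this group numbered 2 in a fit of all 18 libraries, and lower ones 1 among genes of 10 or more counts in each library, 1 in that fit and 1 when any of the hull-less libraries was left out. Class III peroxidases, which cross-link wall phenolics, were called at 30.3%, 5 higher and 5 lower of 33. Peroxidase 72 (Cp4.1LG19g09160) rose from 7.08, 10.6 and 8.79 to 19.7, 22.05 and 24.8 CPM and Peroxidase 10 (Cp4.1LG10g02630) from 0.643, 1.16 and 0.747 to 3.47, 3.22 and 4.71 CPM. The other genes higher were 2 Peroxidase 3 genes and Peroxidase 21 (Cp4.1LG08g10960), with log2 fold changes of 2.12, 1.06 and 2.08. Peroxidase 4 (Cp4.1LG16g06850) had 44, 38 and 54 counts in hulled seed coats and 0 in all hull-less libraries, at least 13.9-fold higher in hulled seed coats. Peroxidase 2 (Cp4.1LG16g09040) fell from 18.4, 20.95 and 18.1 to 1.68, 5.22 and 5.79 CPM, and cationic peroxidase 1, a further Peroxidase 21 and Peroxidase 66 had log2 fold changes of -2.15, -1.99 and -1.33. Of the 8 laccase genes in the table only 2 passed the filter on low counts, and neither was called. Higher peroxidases numbered 3 without hulled replicate 3, 2 without hull-less replicate 2 and 3 without hull-less replicate 3, and lower ones 2 among genes of 10 or more counts in each library and 2 in a fit of all 18 libraries.

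The aquaporins that differed were all lower. Of 38 tested, 10 were lower in hull-less seed coats and 0 were higher (26.3% called). By DESeq2 10 were lower and 0 higher, and at an unadjusted p under 0.05, 14 were lower and 5 higher. The median of the 38 log2 fold changes was -0.01. The genes that were lower included the members with the most counts. Summed over the 54 aquaporin genes in the table, the hulled libraries held 14439 to 17646 CPM and the hull-less libraries 10581 to 11473 CPM. Probable aquaporin PIP1-4 (Cp4.1LG01g05240) was at 5883, 4258 and 5553 CPM in hulled and 2378, 1749.8 and 2217 CPM in hull-less seed coats (log2 fold change -1.31 ± 0.17, adjusted p = 0.00208). The PIP2-7 gene Cp4.1LG04g04870 was at 3071, 2595 and 3446 CPM in hulled and 1355, 1099.8 and 1248 CPM in hull-less seed coats (-1.30 ± 0.14, adjusted p = 0.000932). A further PIP2-7 gene, Cp4.1LG15g05890, was at 1453, 1728 and 1550.3 CPM in hulled and 522, 466 and 509 CPM in hull-less seed coats (-1.66 ± 0.10, adjusted p = 0.00013). In each of these genes the lowest hulled library lay above the highest hull-less one, which the rule for naming them required. TIP3-2 (Cp4.1LG20g01900, LG20, bases 1083503 to 1084938), a vacuolar membrane aquaporin typical of seeds, had the largest decrease of the 10. It was at 205, 154 and 203 CPM in hulled and 3.10, 3.46 and 2.65 CPM in hull-less seed coats, a log2 fold change of -5.93 ± 0.18 (SE) with an adjusted p of 1.27e-05. The number of lower aquaporins stayed between 8 and 10 when 1 library was left out, but was 5 in a fit of all 18 libraries, and 1 aquaporin was higher without hulled replicate 1.

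Transporters of the MATE/DETOXIFICATION family, which move flavonoids, alkaloids and hormones, were called at 38.9% (5 higher and 9 lower of 36), and the higher ones were 3 in a fit of all 18 libraries. DETOXIFICATION 27 (Cp4.1LG14g00930) rose from 4.21, 2.38 and 4.19 to 27.2, 37.3 and 32.8 CPM (log2 fold change 3.17 ± 0.24, adjusted p = 0.000272). Neighbouring DETOXIFICATION 12 genes, Cp4.1LG01g14080 and Cp4.1LG01g14090, rose from 1.81, 2.60 and 1.84 to 6.14, 8.15 and 8.33 CPM and from 8.48, 3.26 and 9.99 to 71.6, 90.2 and 43.9 CPM. They may share reads. DETOXIFICATION 45 and 51 genes had log2 fold changes of 1.996 and 2.76. DETOXIFICATION 55 (Cp4.1LG17g00670) fell from 26.8, 18.96 and 27.2 to 3.54, 3.52 and 5.36 CPM. DETOXIFICATION 35 (Cp4.1LG20g02000), whose *Arabidopsis* homolog loads flavonoids into vacuoles, fell from 23.7, 19.3 and 24.4 to 5.03, 7.04 and 7.14 CPM. Sugar transport and sucrose cleavage genes were called at 16.8%, 11 higher and 10 lower of 125.

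Genes of the photosystems and light-harvesting antenna leaned to the lower side. Of 87 tested, 67 had a negative log2 fold change, with a median of -0.31, and 11 fell while 5 rose (18.4% called). Summed over the 107 genes in the table, the hulled libraries held 3180 to 3321 CPM and the hull-less libraries 2351 to 2591 CPM, without overlap. Photosystem I reaction center subunit N (Cp4.1LG19g12170) fell from 63.3, 55.5 and 61.1 to 8.38, 8.38 and 8.55 CPM (log2 fold change -2.83 ± 0.09, adjusted p = 1.27e-05). The following were chosen after their values were seen. Photosystem I subunit O (Cp4.1LG00g01700) was at 69.8, 84.1 and 74.5 CPM in hulled and 27.2, 21.6 and 35.7 CPM in hull-less seed coats, and chlorophyll a-b binding protein P4 (Cp4.1LG04g14870), an antenna protein, at 55.97, 79.9 and 49.3 CPM in hulled and 26.4, 22.5 and 29.1 CPM in hull-less seed coats. In all, 6 chlorophyll a-b binding protein genes fell. Genes higher in hull-less seed coats were Photosystem II 22 kDa protein (Cp4.1LG13g04750), which dissipates excess light, at 2.40, 2.38 and 2.35 CPM in hulled and 5.34, 6.80 and 10.4 CPM in hull-less seed coats, together with CURVATURE THYLAKOID 1B, carboxyl-terminal-processing peptidase 3 and Photosystem I subunit V, with log2 fold changes of 2.88, 1.25 and 1.25. Oxygen-evolving enhancer protein 2-1 had 2 loci with opposite values, described with the gene copies below. A locus outside the annotation (LG07, bases 9488487 to 9491236) with a replication factor domain was counted here through a photosystem word in its description. Higher genes of the list numbered 2 among genes of 10 or more counts in each library.

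The difference in photosystem genes did not keep its sign with time. At 20 DAP, 47 of 86 tested genes of the list were higher in hull-less seed coats and 6 lower, with a median log2 fold change of 1.19. Over all genes 21.1% were called at that stage. When the difference at 5 DAP was tested against the mean of those at 10 and 20 DAP in a fit of all 18 libraries, 42 of 91 were lower and 2 higher, against 9.38% of all genes called in that contrast (5.40% higher and 3.97% lower). Photosystem I subunit O had log2 fold changes of -1.43 at 5 DAP, 1.35 at 10 DAP and 1.52 at 20 DAP, and chlorophyll a-b binding protein P4 had -1.25, 0.50 and 2.15. The contrast was -2.85 ± 0.38 (SE, adjusted p = 0.000228) for the former and -2.56 ± 0.42 (adjusted p = 0.00102) for the latter.

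Among hormone genes, those of gibberellin had the highest called share (22.4%), 3 higher and 8 lower of 49. Gibberellin-regulated protein 1 (Cp4.1LG07g03630, LG07, bases 2362871 to 2363636), a small cysteine-rich protein induced by the hormone, was at 147, 105 and 158 CPM in hulled and 2.11, 2.40 and 3.84 CPM in hull-less seed coats (log2 fold change -5.60 ± 0.28, adjusted p = 6e-05). Its relative GAST1 (Cp4.1LG18g03150) fell from 33.9, 81.3 and 35.6 to 0.248, 0.469 and 0.541 CPM. Higher in hull-less seed coats were the receptor gene GID1B (Cp4.1LG17g06730), at 3.10, 2.49 and 2.81 CPM in hulled and 6.51, 7.86 and 5.95 CPM in hull-less seed coats, the synthesis enzyme gibberellin 20 oxidase 1-B (Cp4.1LG10g03620), at 1.58, 1.11 and 1.38 CPM in hulled and 3.47, 3.22 and 3.52 CPM in hull-less seed coats, and the inactivating gibberellin 2-beta-dioxygenase 3 (Cp4.1LG12g10390), with a log2 fold change of 1.21. A few others were chosen after their values were seen. Gibberellin 3-beta-dioxygenase 1 (Cp4.1LG07g02720), which makes the active hormone, had 76, 59 and 75 counts in hulled and 1, 0 and 0 counts in hull-less seed coats, a ratio of 206 (95% counting interval 36.6 to 8184). The DELLA protein GAI gene (Cp4.1LG13g05240), a repressor of the response, was lower, at 61.8, 63.1 and 63.1 CPM in hulled and 20.9, 13.9 and 23.1 CPM in hull-less seed coats. Ent-kaurene oxidase (Cp4.1LG06g01310), an early enzyme of the pathway counted among the cytochrome P450s, rose from 4.74, 5.97 and 6.49 to 29.6, 40.8 and 39.9 CPM (log2 fold change 2.68 ± 0.18, adjusted p = 0.000177). Genes of synthesis, inactivation, perception and response stood on both sides. Lower gibberellin genes numbered 3 among genes of 10 or more counts in each library and 5 in a fit of all 18 libraries.

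Ethylene genes leaned to the higher side, 20 higher and 6 lower of 140 (18.6% called), with a median log2 fold change of 0.21. Most of the genes that rose were described as AP2/ERF transcription factors, which act downstream of ethylene and of stress. The following members of synthesis and perception were chosen after their values were seen. Ethylene receptor 1 (Cp4.1LG07g07800) rose from 39.7, 32.2 and 44.9 to 92.9, 109 and 95.2 CPM (log2 fold change 1.35 ± 0.14, adjusted p = 0.000807). Ethylene receptor 2 (Cp4.1LG03g10030) rose from 339, 165 and 331 to 657, 767 and 521 CPM (adjusted p = 0.0206), but was not called without hulled replicate 2, hull-less replicate 1 or hull-less replicate 2. A gene for 1-aminocyclopropane-1-carboxylate oxidase 3 (Cp4.1LG10g09730), the enzyme that forms ethylene, had 0, 0 and 2 counts in hulled and 69, 50 and 65 counts in hull-less seed coats, a ratio of 93.7 (95% counting interval 25.6 to 779). A further oxidase 3 gene (Cp4.1LG19g08030) fell, at a log2 fold change of -2.18. In the AP2 family, 12 of 60 tested genes were higher and 2 lower (23.3% called), with a median of 0.48. Ethylene-responsive transcription factor 1B (Cp4.1LG15g00680) rose from 0.351, 0.221 and 0.459 to 3.35, 4.81 and 4.44 CPM (log2 fold change 3.59 ± 0.32, adjusted p = 0.000527), and ERF053 (Cp4.1LG16g07870) from 1.93, 0.995 and 2.12 to 26.4, 26.03 and 13.4 CPM (3.70 ± 0.37, adjusted p = 0.000789). A dehydration-responsive element-binding protein 2 gene (Cp4.1LG11g02220), chosen after its values were seen, rose from 1.70, 0.332 and 1.55 to 21.5, 20.3 and 24.5 CPM and was lower than in hulled seed coats at 20 DAP, with a log2 fold change of -4.09. The 2 AP2 genes that fell, Cp4.1LG18g05740 and Cp4.1LG12g07240, are AP2-like factors of the same description, at log2 fold changes of -2.43 and -1.54. Other genes of the ethylene list that fell were calmodulin-binding transcription activator 4 (Cp4.1LG01g11810, from 77.6, 67.9 and 73.6 to 17.1, 20.3 and 15.2 CPM), a plastid protease EGY2 (Cp4.1LG01g25350, log2 fold change -1.20) and auxin efflux carrier component 1a (Cp4.1LG04g13660, -2.29), while a further EGY2 locus on unplaced sequence (Cp4.1LG00g12150) rose with 2.96. In both hulled replicate 2 and hull-less replicate 3, 10 of the 140 ethylene genes and 9 of the 60 AP2 genes were lower, against 381 of all 22597 tested genes. Of these, 4 were among the 20 ethylene genes and 2 among the 12 AP2 genes called higher. Such genes were not particular to this group. They numbered 17 of 129 calmodulin and calcium-binding genes, 7 of 84 jasmonate and lipoxygenase genes, 5 of 58 WRKY genes and 2 of 215 heat shock genes. The part of these 2 libraries in the result was not tested beyond leaving them out. With both left out, 24 ethylene genes were higher and 6 lower, and 13 AP2 genes were higher and 2 lower. Higher AP2 genes numbered 4 among genes of 10 or more counts in each library, 7 in a fit of all 18 libraries, 7 without hull-less replicate 1 and 6 without hull-less replicate 2, and higher ethylene genes 9 among genes of 10 or more counts in each library, 13 in a fit of all 18 libraries, 12 without hull-less replicate 1 and 9 without hull-less replicate 2. The lower AP2 genes were 1 among genes of 10 or more counts in each library and 1 in a fit of all 18 libraries, and the lower ethylene genes 3 among genes of 10 or more counts in each library.

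Auxin genes were called at 16.6%, 11 higher and 18 lower of 175. Auxin response factor 6 (Cp4.1LG20g05550), a transcription factor of the response, rose from 37.7, 34.2 and 37.2 to 90.3, 87.3 and 80.2 CPM (log2 fold change 1.24 ± 0.08, adjusted p = 0.0002). SAUR32 (Cp4.1LG03g15990), of a family of early response genes, rose from 0.585, 0.995 and 0.517 to 7.82, 7.51 and 7.79 CPM. The carrier PIN-LIKES 6 (Cp4.1LG19g01740) fell from 21.9, 20.7 and 20.5 to 0.869, 0.645 and 1.14 CPM and stayed lower at 10 and 20 DAP, at log2 fold changes of -4.65 and -5.35. The uptake carrier auxin transporter-like protein 3 (Cp4.1LG01g20210) fell from 11.6, 15.2 and 13.2 to 3.47, 2.81 and 2.16 CPM. Among genes of 10 or more counts in each library, 6 were higher and 8 lower.

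Cytokinin and two-component genes were called at 19%, 9 higher and 6 lower of 79. Histidine kinase CKI1 (Cp4.1LG07g08610), a sensor-type kinase needed in the female gametophyte of *Arabidopsis*, rose from 3.16, 2.60 and 3.16 to 12.4, 9.21 and 10.6 CPM (log2 fold change 1.85 ± 0.18, adjusted p = 0.000646). A riboside phosphoribohydrolase gene (Cp4.1LG16g05320), whose product releases active cytokinin, rose from 68.8, 80.5 and 76.3 to 119, 191 and 169 CPM. Of the 6 lower genes, 4 were described as APRR2, a response regulator-like factor that in cucurbit fruit is linked to chlorophyll and pigment. The APRR2 gene Cp4.1LG15g03420 fell from 24.2, 23.3 and 23.9 to 0.248, 0.176 and 0.162 CPM, with a log2 fold change of -6.89 ± 0.17 (SE) and an adjusted p of 7.45e-06. Its level in the 3 hull-less libraries was close to that of 3 counts. The gene Cp4.1LG14g08960 fell from 341, 241 and 307 to 69.4, 51.1 and 59.03 CPM. The former was also lower at 10 and 20 DAP, at -8.33 and -6.94. Reads may be shared between loci with this description. Higher genes of this list numbered 4 in a fit of all 18 libraries, 5 without hulled replicate 1, 5 without hulled replicate 3 and 2 without hull-less replicate 2, and lower ones 3 in a fit of all 18 libraries.

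Jasmonate and lipoxygenase genes were called at 9.52%, under the share of all genes, with 7 higher and 1 lower of 84. The members with the widest differences had 0 counts in all hulled libraries: a jasmonate O-methyltransferase gene (Cp4.1LG02g07580), which makes the volatile ester, at 3.54, 4.98 and 6.22 CPM in hull-less seed coats, and a lipoxygenase locus outside the annotation (LG11, bases 7889733 to 7892321), at 2.30, 2.99 and 2.65 CPM. They were at least 28.01-fold and at least 15.1-fold higher. The repressor TIFY 10B (Cp4.1LG12g09310) was the lower gene, at 8.48, 5.25 and 6.66 CPM in hulled and 2.42, 2.76 and 2.16 CPM in hull-less seed coats. Jasmonate genes higher in hull-less seed coats numbered 4 without hulled replicate 2 and 4 without hull-less replicate 1, and lower ones 3 without hulled replicate 2, 3 when hull-less replicate 3 was left out with it, 2 without hull-less replicate 1, 2 without hull-less replicate 2 and 2 with DESeq2. Abscisic acid genes were called at 17% (5 higher and 3 lower of 47). Genes of the brassinosteroid word list were called at 4.88% (2 higher and 0 lower of 41 by edgeR). In that list 3 were higher and 0 lower by DESeq2, and 14 higher and 6 lower at an unadjusted p under 0.05. The list did not match a lower gene for an early brassinosteroid enzyme (Cp4.1LG01g07020), which is given with the cytochromes below.

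Several families of transcription factors had called shares above that of all tested genes. The family column of the table gives the leading Pfam domain and is not limited to transcription factors. Of 219 families with at least 10 tested genes, 42 had no DEG. In the homeobox family 3 of 40 were higher and 7 lower (25.0%). WUSCHEL-related homeobox genes, which keep stem cells and pattern the ovule, made up 5 of these 10. WUSCHEL-related homeobox 8 (Cp4.1LG14g10580) fell from 124, 107 and 129.7 to 39.5, 41.4 and 44.4 CPM (log2 fold change -1.53 ± 0.10, adjusted p = 0.000168), whereas a further gene of that name, Cp4.1LG06g00130, rose from 7.84, 6.19 and 9.76 to 23.5, 18.3 and 12.1 CPM. WUSCHEL-related homeobox 9 (Cp4.1LG10g05160) had 29, 28 and 42 counts in hulled and 0, 1 and 0 counts in hull-less seed coats, a ratio of 97.2 (95% counting interval 17.1 to 3878). HAT22 genes Cp4.1LG06g02260 and Cp4.1LG10g01800 were higher, at log2 fold changes of 2.06 and 1.03. In the zinc-finger homeodomain family 5 of 19 were higher and 2 lower (36.8%), with a median of 0.46. The higher genes were named zinc-finger homeodomain proteins 1, 4 and 11, and Cp4.1LG11g02120 rose from 1.81, 2.16 and 2.18 to 8.06, 8.74 and 10.8 CPM (log2 fold change 2.16 ± 0.19, adjusted p = 0.00045). The others, Cp4.1LG10g01350, Cp4.1LG19g09980, Cp4.1LG01g22920 and Cp4.1LG09g01800, had log2 fold changes of 1.53, 1.52, 1.30 and 2.75. The 2 lower ones were both mini zinc finger protein 3 genes (Cp4.1LG18g07980 and Cp4.1LG04g15090), short relatives that in *Arabidopsis* bind and block the longer proteins, at -2.08 and -2.34. Higher zinc-finger homeodomain genes numbered 1 in a fit of all 18 libraries and 3 without hull-less replicate 2, and higher homeobox genes 1 in a fit of all 18 libraries, 1 without hull-less replicate 1 and 1 without hull-less replicate 2. Among genes of 10 or more counts in each library, 1 zinc-finger homeodomain gene and 2 homeobox genes were lower.

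GATA factors, many of which act in greening and cytokinin response, fell in 5 of 23 and rose in 1 (26.1%). GATA transcription factor 5 (Cp4.1LG10g00520) was at 44.6, 62.5 and 50.999 CPM in hulled and 17.2, 19.2 and 16.9 CPM in hull-less seed coats, and GATA 9 (Cp4.1LG02g14590) at 26.6, 35.8 and 29.8 CPM in hulled and 11.8, 9.26 and 8.98 CPM in hull-less seed coats. GATA 18, 15 and 8 (Cp4.1LG01g07010, Cp4.1LG03g11690 and Cp4.1LG09g04140) had log2 fold changes of -3.48, -1.08 and -1.21. A further GATA 8 gene (Cp4.1LG01g24410) was higher, at 49.6, 22.8 and 50.5 CPM in hulled and 93.2, 142 and 81.004 CPM in hull-less seed coats, but was not called without hull-less replicate 1 or hull-less replicate 2. In the NAC family 4 of 72 were higher and 10 lower (19.4%). NAC domain-containing protein 10 (Cp4.1LG10g05110) fell from 24.4, 27.8 and 26.7 to 0.062, 0 and 0.216 CPM (log2 fold change -7.99 ± 0.39, adjusted p = 6e-05). It was also lower at 10 DAP (-8.49), while at 20 DAP its log2 fold change was 0.51. NAC 79 (Cp4.1LG01g22770) fell from 18.1, 16.3 and 17.6 to 7.63, 6.39 and 8.12 CPM. The higher genes besides NAC 100 were a NAM domain gene without a name (Cp4.1LG07g04310), which rose from 12.1, 10.6 and 14.4 to 41.6, 41.6 and 46.6 CPM and was higher at 10 and 20 DAP too (3.03 and 4.41), NAC 8 (Cp4.1LG01g13710, log2 fold change 1.11) and NAC 14 (Cp4.1LG00g06240, 2.22). A further NAC 14 locus (Cp4.1LG08g00170) fell, at a log2 fold change of -4.59. Over both NAC 14 loci, the level was 7.31 ± 3.68 CPM in hulled and 7.23 ± 1.92 CPM in hull-less seed coats (SD, n = 3). Lower GATA genes were 3 in a fit of all 18 libraries, and without hull-less replicate 3, 2 were higher. Lower NAC genes numbered 6 among genes of 10 or more counts in each library and 4 in a fit of all 18 libraries.

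In the bHLH family 14 of 114 were higher and 14 lower (24.6%). The gene Cp4.1LG16g07530, described as bHLH30, rose from 7.66, 7.68 and 9.82 to 27.7, 25.7 and 29.98 CPM (log2 fold change 1.73 ± 0.13, adjusted p = 0.000291). A gene with a helix-loop-helix domain and no name (Cp4.1LG09g08320) fell from 16.03, 19.2 and 15.2 to 1.99, 1.76 and 2.11 CPM (-3.10 ± 0.16, adjusted p = 6.68e-05). Genes for SPATULA (Cp4.1LG10g02370) and HEC2 (Cp4.1LG05g11010), partners in carpel and transmitting tissue growth in *Arabidopsis*, were chosen after their values were seen. SPATULA had 2, 1 and 1 counts in hulled and 25, 21 and 23 counts in hull-less seed coats, a ratio of 17.6 (95% counting interval 6.56 to 66.3). HEC2 had 1, 0 and 2 counts against 28, 22 and 41, a ratio of 30.9 (95% counting interval 10.2 to 153). In the MYB family 15 of 179 were higher and 24 lower (21.8%), counting the APRR2 genes. MYB80 (Cp4.1LG14g07930), known for its role in the anther tapetum, had 0, 3 and 1 counts in hulled and 71, 71 and 84 counts in hull-less seed coats, a ratio of 57.5 (95% counting interval 22.2 to 213). The MYB-related gene EFM (Cp4.1LG10g02760) rose from 13.8, 10.4 and 14.1 to 29.7, 32.1 and 24.8 CPM and was higher at 10 and 20 DAP (1.47 and 1.40). In the MADS family 4 of 27 were higher and 0 lower by edgeR (14.8%), 5 higher and 0 lower by DESeq2, and 7 each at an unadjusted p under 0.05. AGL82 (Cp4.1LG05g10610) rose from 2.98, 1.11 and 3.10 to 9.55, 15.9 and 18.6 CPM, a locus outside the annotation (LG17, bases 8108866 to 8135566) from 2.16, 2.05 and 1.67 to 6.64, 7.27 and 7.20 CPM, and AGL24 and an AGL8 homolog (Cp4.1LG07g01680 and Cp4.1LG03g15390) had log2 fold changes of 2.39 and 1.74. Higher MYB genes numbered 7 in a fit of all 18 libraries and 9 without hulled replicate 3, and lower ones 15 among genes of 10 or more counts in each library. MADS genes higher in hull-less seed coats were 2 in a fit of all 18 libraries.

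WRKY factors were called at 22.4%, 7 higher and 6 lower of 58. WRKY 71 (Cp4.1LG04g02450) rose from 0.643, 0.608 and 1.03 to 3.54, 3.99 and 3.30 CPM. WRKY 75 (Cp4.1LG03g06840) had 2, 3 and 1 counts in hulled and 23, 34 and 36 counts in hull-less seed coats. WRKY 57 (Cp4.1LG11g03940) fell from 19.01, 29.6 and 20.7 to 5.27, 3.34 and 3.68 CPM (log2 fold change -2.50 ± 0.24, adjusted p = 0.000677). WRKY 44 (Cp4.1LG03g02050), which in *Arabidopsis* controls tannin and mucilage of the seed coat, fell from 68.8, 79.5 and 85.3 to 30.03, 32.8 and 28.9 CPM (-1.35 ± 0.11, adjusted p = 0.00033).

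Enzymes of specialised metabolism differed often and in both directions. Cytochrome P450s were called at 27.6%, 23 higher and 14 lower of 134. Cytochrome P450 93A3 (Cp4.1LG02g17520) rose from 0.409, 0.276 and 0.172 to 6.33, 6.04 and 4.82 CPM (log2 fold change 4.29 ± 0.32, adjusted p = 0.00026). Cytochrome P450 78A5 (Cp4.1LG09g06020), of a family that controls organ and seed size in *Arabidopsis*, fell from 10.2, 14.7 and 11.5 to 2.05, 2.87 and 2.76 CPM (-2.24 ± 0.21, adjusted p = 0.000628), and 90B1 (Cp4.1LG01g07020), an early brassinosteroid enzyme, fell from 10.9, 9.95 and 9.13 to 4.40, 3.75 and 4.004 CPM. Flavonoid pathway genes were called at 23.3%, 5 higher and 5 lower of 43. Flavonol synthase/flavanone 3-hydroxylase (Cp4.1LG04g08250) rose from 53.5, 45.4 and 55.2 to 112, 97.3 and 113 CPM (1.06 ± 0.11, adjusted p = 0.000804), and flavonoid 3'-monooxygenase (Cp4.1LG04g14800) from 12.7, 16.8 and 14.6 to 36.2, 26.4 and 28.1 CPM. Naringenin,2-oxoglutarate 3-dioxygenase (Cp4.1LG08g09200), which makes dihydroflavonols, fell from 15.8, 25.4 and 16.3 to 4.84, 4.75 and 4.98 CPM (-1.98 ± 0.21, adjusted p = 0.000953). An isoflavone reductase homolog (Cp4.1LG15g01730) fell with a log2 fold change of -2.95, an anthocyanin acyltransferase (Cp4.1LG05g14850) rose with 1.70, and the list also counts the UDP-glycosyltransferase and DETOXIFICATION 35 genes. The 2 further DETOXIFICATION 35 genes (Cp4.1LG13g02610 and Cp4.1LG09g10660) were lower, the former at 42.6, 57.9 and 50.6 CPM in hulled and 22.1, 19.1 and 21.8 CPM in hull-less seed coats and the latter with 37, 40 and 19 counts against 1, 0 and 0. Anthocyanidin reductase (Cp4.1LG02g07070), the last enzyme before tannin formation, did not pass, at a log2 fold change of 0.53 with an adjusted p of 0.0795. UDP-glycosyltransferases, glutathione S-transferases and 2-oxoglutarate-dependent dioxygenases were called at 22%, 19% and 20.6%, and pentatricopeptide repeat proteins, RING and U-box ligases and F-box proteins at 8.01%, 9.80% and 11.3%. Lower cytochrome P450s numbered 4 in a fit of all 18 libraries. Flavonoid genes higher in hull-less seed coats numbered 3 without hull-less replicate 1, 3 when hulled replicate 2 and hull-less replicate 3 were both left out and 3 among genes of 10 or more counts in each library, and lower ones 3 among genes of 10 or more counts in each library.

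Of 68 orthologs of *Arabidopsis* SCW genes named by the study, 47 passed the filter at 5 DAP, 2 were higher and 8 lower (21.3% called), with a median log2 fold change of -0.36. The study chose these orthologs by protein sequence and domains, and reported their expression in these same samples. Their direction here is therefore no independent evidence. Cellulose synthase A catalytic subunit 8 (Cp4.1LG20g04780), chosen after its values were seen, was at 3.39, 4.42 and 4.59 CPM in hulled and 1.86, 2.05 and 1.73 CPM in hull-less seed coats. The difference was -1.13 ± 0.21 at 5 DAP and -6.82 and -6.43 at 10 and 20 DAP. A kinesin-like protein KIN-4A gene (Cp4.1LG06g01660), whose product guides vesicles that supply the wall, fell from 122, 134 and 131 to 51.8, 53.01 and 46.9 CPM. Those higher were ROOT HAIR DEFECTIVE 3 homolog 1 (Cp4.1LG17g05000, from 9.01, 13.05 and 10.97 to 35.2, 32.8 and 35.2 CPM) and cytochrome P450 84A1 (Cp4.1LG04g01050, from 0.175, 0.387 and 0.689 to 3.47, 2.35 and 4.27 CPM). At 20 DAP, 1 of 53 tested orthologs was higher and 33 were lower. Lower orthologs at 5 DAP numbered 2 in a fit of all 18 libraries and 5 without hull-less replicate 2, and higher ones 1 among genes of 10 or more counts in each library and 1 in a fit of all 18 libraries.

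Markers of the tissue and of neighbouring ones were measured beside these results. Seed coat identity genes were present: the MADS-box gene AGL11 (Cp4.1LG02g10680), the homolog of SEEDSTICK, stood at 938 to 1108 CPM in hulled and 538 to 630 CPM in hull-less seed coats, a log2 fold change of -0.79 with an adjusted p of 0.00221 that missed the limit on size. Seed coat markers summed to 2431 to 2613 CPM in hulled and 2118 to 2278 CPM in hull-less seed coats, without overlap. AGL11 is counted in this sum and had the widest difference in CPM of the markers in it. Over the 20 tested markers, 12 log2 fold changes were positive and 8 negative, with a median of 0.08. The word match also took in homeobox-leucine zipper genes named HDG or ROC and a GLABRA2 expression modulator. Most of the 20 were of these kinds, so the signs, the median and the sum are not those of seed coat identity genes alone. Of 20 tested, 1 was higher (the GLABRA 2 homolog) and 1 lower (WRKY 44), and 2 were higher without hull-less replicate 3. Another GLABRA 2 homolog, Cp4.1LG02g14580, was expressed in both accessions, at 185 to 234 CPM in hulled and 146 to 158 CPM in hull-less seed coats. Endosperm markers summed to 46.3 to 77.8 CPM in hulled and 47.3 to 55.0 CPM in hull-less seed coats, and 6 of the 11 had at most 3 counts in every library. Embryo and seed storage markers summed to 4372 to 4940 and 4592 to 4995 CPM, with 34 of 117 at or under 3 counts in every library, and 9 of 65 tested were higher and 4 lower. The 11S globulin gene Cp4.1LG12g01360, a storage protein, rose from 9.47, 3.48 and 4.36 to 31.3, 24.6 and 25.3 CPM. LEC14B homologs, whose name contains LEC1, a word of this list, are counted here but are not named as LEC1 genes. They stood on both sides, Cp4.1LG00g10180 rising from 0.585, 0.774 and 0.402 to 11.97, 10.1 and 10.98 CPM and Cp4.1LG12g05270 falling from 146, 157 and 150 counts to 1, 1 and 0. The other 3 lower genes (Cp4.1LG06g02380, Cp4.1LG17g05530 and Cp4.1LG11g05050) had log2 fold changes of -1.43, -1.19 and -2.30. Among genes of 10 or more counts in each library, 5 embryo-list genes were higher and 2 lower, and 5 were higher in a fit of all 18 libraries. Phloem markers summed to 1286 to 1323 CPM in hulled and 978 to 1097 CPM in hull-less seed coats, without overlap. Of 35 tested, 2 were lower (Cp4.1LG02g12410 at -1.03 and Cp4.1LG09g06890 at -1.30) and 0 higher by edgeR, with 4 lower and 0 higher by DESeq2 and 9 lower and 2 higher at an unadjusted p under 0.05. Lower phloem genes numbered 0 without hulled replicate 1, 1 without hulled replicate 3, 4 without hull-less replicate 1, 0 without hull-less replicate 2 and 1 in a fit of all 18 libraries. The part of seed coat and phloem marker content in the aquaporin, photosystem and other results was not tested.

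DEGs were spread over all linkage groups, at 8.17% to 16.9% of the tested genes of each of the 20 groups, with the highest share on linkage group 16 (77 higher and 53 lower of 771). Sequence not placed on any linkage group stood apart with 30.2% (116 higher and 183 lower of 990), against 11.1% for all placed genes, and so did loci outside the annotation, with 31.3% (255 of 816). The part of gene copies in these shares was not tested. Of 3085 protein descriptions shared by exactly 2 tested genes, both genes were DEGs in 58, of which 38 went in the same direction and 20 in opposite ones. Over all tested genes 5.53% were higher and 6.43% lower, and the numbers of pairs are given as a description only. The following were chosen after their values were seen. Oxygen-evolving enhancer protein 2-1 had Cp4.1LG14g03090 at 45.6, 19.8 and 26.1 CPM in hulled and 0.806, 0.88 and 0.866 CPM in hull-less seed coats, and Cp4.1LG00g08180, on unplaced sequence, at 0.409, 0.166 and 0.287 CPM in hulled and 16.998, 16.8 and 18.6 CPM in hull-less seed coats. The mitochondrial import subunit TIM10 had Cp4.1LG02g11520 with a log2 fold change of -3.17 and Cp4.1LG00g09730, on unplaced sequence, with 0 counts in all hulled libraries. Summed over both loci, the enhancer was at 30.8 ± 13.5 CPM in hulled and 18.3 ± 0.996 CPM in hull-less seed coats (SD, n = 3). Summed over both TIM10 loci, the level was 13.5 ± 3.40 CPM in hulled and 12.3 ± 4.55 CPM in hull-less seed coats (SD, n = 3). Loci described as bHLH49, which is not among the 20 opposite pairs, also moved oppositely. Cp4.1LG00g11090 fell from 32.6, 20.6 and 17.1 to 2.05, 2.46 and 1.84 CPM and Cp4.1LG01g18930 rose from 1.81, 1.38 and 2.70 to 21.8, 24.7 and 26.4 CPM. The lipid-transfer protein gene on LG19 had a counterpart of the same description on unplaced sequence, Cp4.1LG00g05770, with a log2 fold change of -6.27. Over both, the level was 17.1 ± 4.92 CPM in hulled and 90.1 ± 6.45 CPM in hull-less seed coats (SD, n = 3). Reads from near-identical copies can be assigned to 1 copy in one accession and to the other copy in the other, so values for such pairs are uncertain.

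**Figure D3:**
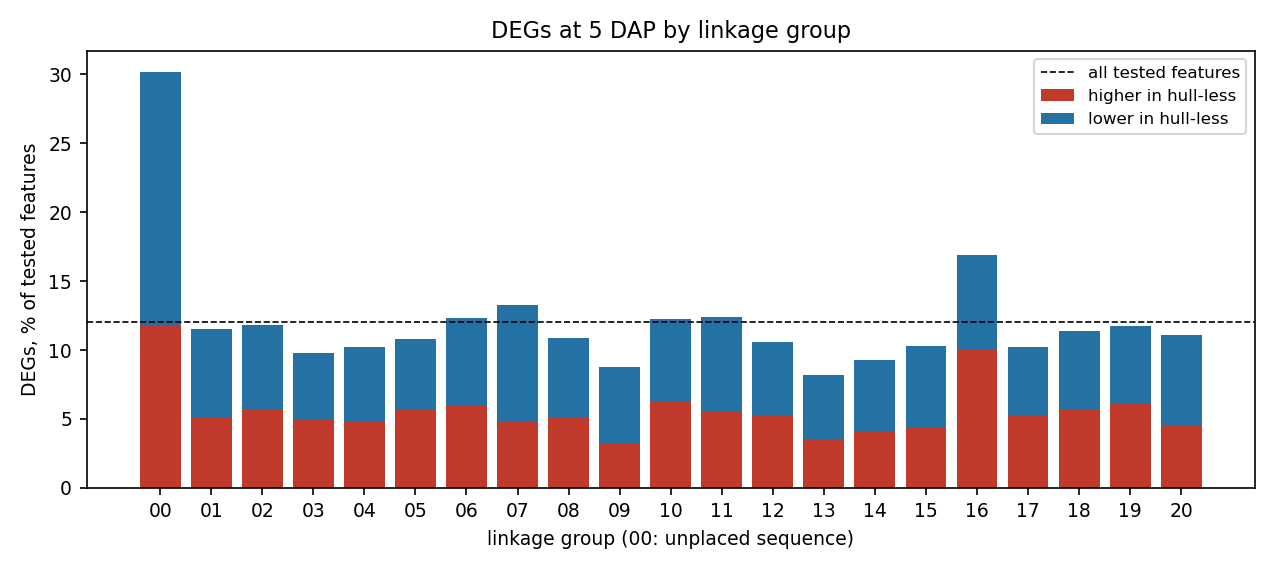
Share of tested features on each linkage group that were DEGs at 5 DAP, in percent, higher in hull-less seed coats below and lower stacked above. Unplaced sequence (00) reaches 30.2%, the 20 linkage groups lie between 8.17% and 16.9%, and the dashed line is at 12%, the share over all tested features.

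The genes called at 5 DAP were followed to the later stages, whose libraries are not shared with 5 DAP. Of the 1249 genes higher at 5 DAP, 943 were tested at 10 DAP, where 326 were higher again and 21 lower, and 932 at 20 DAP, where 305 were higher again and 137 lower. Of the 1453 genes lower at 5 DAP, 461 of 1169 tested were lower again at 10 DAP and 29 higher, and 509 of 1184 were lower again at 20 DAP and 91 higher. At 10 DAP 5.42% of all genes were called higher and 5.56% lower, and at 20 DAP 8.37% and 12.7%. Higher calls at all 3 stages were made for 159 genes and lower calls at all 3 stages for 282. The libraries at 10 DAP were less uniform, since hulled replicate 1 correlated with the others of its group at 0.850 and 0.895. The other pairs within a group at any of the 3 stages were at 0.9597 or more. These correlations are of log2(CPM + 1), a log scale other than that of the 5 DAP correlations given first.

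In the contrast of the difference at 5 DAP against the mean of the later ones, 1311 of 24259 tested genes had a higher difference at 5 DAP and 964 a lower one (9.38% called). Against 20 DAP alone, which leaves out the 10 DAP libraries, the counts were 2550 and 1848. The chosen genes share their 5 DAP values with this contrast, so the 331 of 1249 higher genes and 292 of 1453 lower genes called in it in their own direction are given as a description. The GLABRA 2 homolog was high at 5 DAP only. In the scaling over all 18 libraries it was at 14.01 to 16.2 CPM in hull-less seed coats at 5 DAP, at 0.0753 to 0.220 CPM at 10 DAP and at 0.0596 to 0.198 CPM at 20 DAP, with 0 in every hulled library. The aquaporin PIP2-7 gene Cp4.1LG04g04870 was lower at 5 DAP (-1.30) and had log2 fold changes of 1.25 and 0.54 later (contrast -2.19 ± 0.28, SE, adjusted p = 0.000184). The DELLA gene GAI had -1.70 at 5 DAP, -0.24 at 10 DAP and 1.02 at 20 DAP (contrast -2.08 ± 0.30, adjusted p = 0.000411). Cyclin-D3-3 was higher at 5 DAP and had -1.85 and -1.91 later, with a contrast of 2.93 (adjusted p = 0.00451). DETOXIFICATION 55 fell at 5 DAP and was higher at 10 DAP (2.11), with a contrast of -3.25 (adjusted p = 0.000285). The SCW orthologs ran the other way in time, 22 of 59 with a higher difference at 5 DAP than later and 0 with a lower one.

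**Figure D4:**
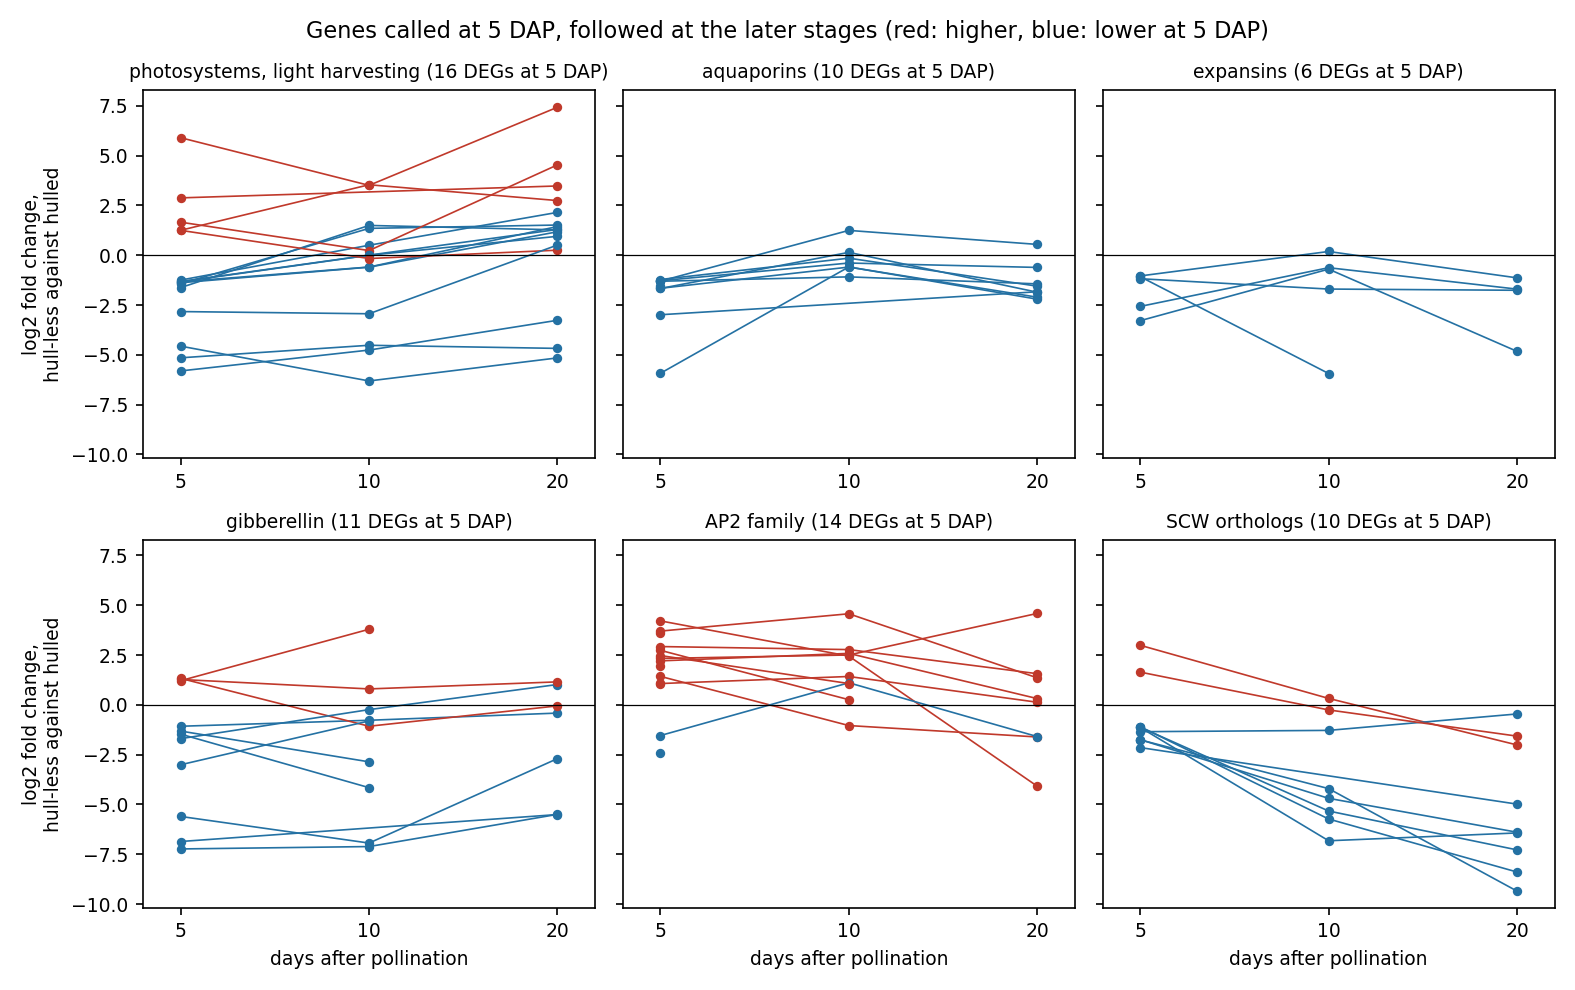
Log2 fold change, hull-less against hulled, by stage (5, 10 and 20 DAP) for the DEGs of the earliest stage in 6 groups of genes, 1 line a gene, red for higher and blue for lower at 5 DAP; a gene not tested at a stage has no point there. Most lower photosystem and light-harvesting genes cross 0 by 20 DAP, gibberellin genes mostly keep their side, and SCW orthologs lower at 5 DAP mostly fall further.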

How the data were processed

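Seed coats of a hulled and a hull-less accession were sequenced as 3 libraries each at 5, 10 and 20 DAP. The authors deposited raw read counts for 29484 features (27868 annotated genes and 1616 loci outside the annotation), made from clean reads mapped to the zucchini reference genome; the counting program is not given in the sources used here. The same file holds the authors' FPKM values and their own fold changes and p-values, which were not used. Its family column gives leading Pfam domain names, transcription factors or not. Here edgeR 4.0.16 (R 4.3.3) with TMM scaling, its default filter on low counts, the quasi-likelihood test and Benjamini-Hochberg adjustment was fitted to the 6 libraries at 5 DAP, and DESeq2 1.42.0 was an alternative. The 5 DAP difference was tested against the mean of the later ones in a fit of all 18 libraries, with the same limits for a call. SE is the absolute log2 fold change divided by the square root of the F statistic.

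Gene lists were word matches in the deposited descriptions, and the patterns for ethylene, cyclins and peroxidases were corrected after their matches were seen. The members and lists were chosen with earlier results of these data known. Named genes were *CpNST1* and, by rule, non-overlapping described DEGs averaging 100 counts or more that had the 6 widest log2 fold changes or the 4 highest counts in each direction, and in each described list up to 2 DEGs a direction by smallest p without overlap, or all where a direction had at most 5; any other is said to be chosen after its values were seen. In simulated counts for 22597 genes, 200 drawn from the more abundant ones were changed by 2 log2 units. Of these, edgeR recovered 192 with 9 false calls and DESeq2 recovered 196 with 35. Recovery among genes with few counts was not measured. A group at 0 was given a bound at 3 counts a library, and ratios with 1 to 3 counts a library have 95% exact counting intervals; both cover counting error only. Alternatives were other scalings and filters, DESeq2, no limit on fold change, all 18 libraries in one fit, a replicate block and each library left out.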

Additional observations from a re-analysis of the deposited data

Results flagged for a closer look

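For the genes below, the accession difference at 5 DAP differed from the mean of those at 10 and 20 DAP by a test of that difference itself (edgeR, all 18 libraries), which called 9.38% of all tested genes. Values are the log2 difference between the stages. The genes were named for their 5 DAP values, which also enter this test, so their number is not read as a result.

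Among photosynthesis genes, the difference was lower at 5 DAP for Photosystem I subunit O (Cp4.1LG00g01700, -2.85), subunit N (Cp4.1LG19g12170, -1.61) and chlorophyll a-b binding protein P4 (Cp4.1LG04g14870, -2.56), and higher for the replication factor domain locus on LG07 counted with them (1.18). EGY2 (Cp4.1LG01g25350) had -1.78. Among wall and water genes it was lower for PIP2-7 (Cp4.1LG04g04870, -2.19), pectinesterase 22 (Cp4.1LG18g00420, -2.37), Peroxidase 72 (Cp4.1LG19g09160, -1.11) and fasciclin-like arabinogalactan protein 4 (Cp4.1LG00g08520, -2.10). It was higher for the xyloglucan enzymes Cp4.1LG18g06260 (3.71) and Cp4.1LG05g00440 (3.31), the 21 kDa protein (Cp4.1LG13g02110, 3.71), Peroxidase 21 (Cp4.1LG08g10960, 2.28) and 4 SCW orthologs, fasciclin-like arabinogalactan protein 11 (Cp4.1LG10g04690, 3.802), cellulose synthase A subunit 8 (Cp4.1LG20g04780, 5.51), ROOT HAIR DEFECTIVE 3 homolog 1 (Cp4.1LG17g05000, 2.56) and cytochrome P450 84A1 (Cp4.1LG04g01050, 3.86).

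Among hormone genes, the DELLA gene GAI (Cp4.1LG13g05240, -2.08) and auxin transporter-like protein 3 (Cp4.1LG01g20210, -2.50) had lower differences at 5 DAP. Gibberellin 20 oxidase (Cp4.1LG10g03620, 1.90), ent-kaurene oxidase (Cp4.1LG06g01310, 3.91), CKI1 (Cp4.1LG07g08610, 1.30), ethylene receptor 1 (Cp4.1LG07g07800, 1.89), 1-aminocyclopropane-1-carboxylate oxidase 3 (Cp4.1LG10g09730, 9.31) and jasmonate O-methyltransferase (Cp4.1LG02g07580, 8.16) had higher ones. Among transcription factors, the difference was lower for NAC 10 (Cp4.1LG10g05110, -3.96), the unnamed NAM gene (Cp4.1LG07g04310, -1.90), WRKY 57 (Cp4.1LG11g03940, -2.32), WUSCHEL-related homeobox 8 (Cp4.1LG14g10580, -1.21), mini zinc finger 3 (Cp4.1LG18g07980, -1.66) and the unnamed bHLH gene (Cp4.1LG09g08320, -3.86). It was higher for NAC 100 (Cp4.1LG03g08150, 1.65), the dehydration-responsive factor (Cp4.1LG11g02220, 5.06), MYB80 (Cp4.1LG14g07930, 6.44), the AGL8 homolog (Cp4.1LG03g15390, 4.49) and zinc-finger homeodomain protein 11 (Cp4.1LG01g22920, 4.05).

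In metabolism and transport, the difference was higher at 5 DAP for DETOXIFICATION 12 (Cp4.1LG01g14080, 4.92) and 27 (Cp4.1LG14g00930, 2.74), cytochrome P450 93A3 (Cp4.1LG02g17520, 5.87), isoflavone 2'-hydroxylase (Cp4.1LG16g01390, 7.79), flavonol synthase (Cp4.1LG04g08250, 2.09) and the lipase (Cp4.1LG10g02580, 1.58). It was lower for DETOXIFICATION 35 (Cp4.1LG13g02610, -1.77) and 55 (Cp4.1LG17g00670, -3.25) and the cation/proton exchanger (Cp4.1LG10g07910, -1.62). In the remaining lists, Cyclin-D3-3 (Cp4.1LG02g06870, 2.93) and histone H2A (Cp4.1LG17g06790, 4.51) had higher differences, while histone H2AXb (Cp4.1LG18g00560, -1.24) and the embryo-list genes Cp4.1LG06g02380 (-1.32) and Cp4.1LG17g05530 (-1.65) had lower ones.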

How the results depend on the processing

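Without the limit on fold change, 2896 genes were higher and 3483 lower, and among genes with at least 10 counts in each library the counts were 905 and 925, since fewer genes were tested. The remaining counts, given as genes higher and genes lower in hull-less seed coats, stayed within 1.5 times the main ones: 1284 and 1414 with relative log expression scaling, 1452 and 1580 with DESeq2, 904 and 1130 in a fit of all 18 libraries, and 1002 to 1242 and 1243 to 1492 when 1 library was left out. With relative log expression scaling 2663 of the 2702 DEGs were called again and in the fit of all 18 libraries 1868 were. The stage contrast had 727 higher and 704 lower genes among those with at least 10 counts. Against 20 DAP alone, chosen after seeing the data, it had 2550 and 1848. Leaving out 1 hulled or hull-less library of the earliest stage gave 896 to 1049 and 668 to 819. The libraries of the later stages were kept in these fits. Of 2064 values for 151 named genes under the alternatives, 1917 stayed on their side of the limits, 147 were no longer called and 0 changed direction, and 101 genes were called under every alternative that tested them. The calls were lost most often in the fit of all 18 libraries (36), in which UDP-glycosyltransferase 73C6 was among them, and without hull-less replicate 2 (24).

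Replicate numbers did not pair the samples: deviations from the group means of libraries with the same number correlated at 0.30, -0.28 and -0.26. With the replicate block 1051 genes were higher and 1331 lower, and 1187 and 912 in the stage contrast. The block gave 10 higher ethylene, 7 AP2, 5 cytokinin, 1 homeobox, 1 kinesin and 0 GATA genes and 4 lower phloem genes. It moved no other list count that was followed over the alternatives by over 1.5 times. Nothing in the labels says how the replicates were grown, so p-values measure the spread between these libraries. Values of genes near the floor of 3 counts are limited by depth.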
